A study of Mus musculus with 6 samples.

Results

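The 120 genes described here are those that the annotated gene table places in the KEGG pathways Peroxisome or Fatty acid degradation. Carrier genes whose symbols start with Slc, and the antioxidant genes Cat, Sod1, Sod2, Prdx1 and Prdx5, were left out, which removed 7 of 127 rows. Of the 120 genes among 22322 in the table, 68 carried only the Peroxisome entry, 40 only the Fatty acid degradation entry and 12 carried both. Their RNA was measured in CD4+CD8+ double-positive (DP) thymocytes, the cells of the thymic cortex that carry both coreceptors, to compare gene transcription with and without Paxbp1. The control group was 3 libraries from Paxbp1 fl/fl mice, named WT in the labels, and the cKO group was 3 libraries from Paxbp1 fl/fl Lck-cre mice. Both groups carried the floxed Paxbp1 allele, with loxP sites around exon 8, and differed in the Cre transgene, which the Lck promoter drives in the T cell lineage from an early thymocyte stage. The mice were on the C57BL/6 background, 4 to 7 weeks old, of both sexes and untreated, and the cells were sorted by flow cytometry. Neither the labels nor the methods say whether each library came from a separate mouse, so the p-values below measure the spread between these libraries.

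Fatty acids are activated to acyl-CoA by acyl-CoA synthetases and are then shortened by β-oxidation in 2 organelles. Mitochondria receive long-chain acyl groups through the carnitine acyltransferases and oxidise them with a chain of dehydrogenases, a hydratase and thiolases. Peroxisomes take up very-long-chain acyl-CoA through ABC transporters, begin its oxidation with oxidases that release hydrogen peroxide, and also make the first steps of ether lipids. Their enzymes are imported from the cytosol by the peroxins. DP thymocytes are small, mostly resting cells, and neither pathway is among their defining functions.

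The libraries held 18963775 to 26252248 counts, and 1 count was worth 0.0381 to 0.0527 CPM (counts scaled to the size of the library). Paxbp1 itself had 24.0 ± 14.0 CPM in the control libraries and 45.2 ± 5.64 CPM in the cKO libraries (SD, n = 3 each; log2 fold change 0.92, edgeR adjusted p = 0.0977). A count over the whole gene does not measure the loss of exon 8, so the level of Paxbp1 checked nothing about the genotype labels. By qPCR the study reported less Paxbp1 RNA at an earlier thymocyte stage in cKO mice and complete deletion before the DP stage. Its western blot showed efficient loss of the protein in sorted DP cells. The whole-gene count ran opposite to that RNA assay, and the reason was not tested. All 12 markers of DP thymocytes were detected and tested. Of these, 5 passed the test as lower in cKO (Cd1d1, Bcl11b, Rag1, Cd3e and Cd8b1), against 5.89% of all tested genes. The 12 markers had a summed level of 10919 to 12983 CPM in control and 8062 to 9506 CPM in cKO. Of 15 macrophage markers, 11 could be tested and 4 were higher in cKO (C1qb, C1qc, Cd68 and Adgre1), against 4.47% of all tested genes. The 15 markers had a summed level of 45.2 to 95.0 CPM in control and 107 to 146 CPM in cKO, while Mertk had 0 counts in every library. With each library left out in turn, only Cd1d1 and Adgre1 of these called markers kept the call in all 6 fits. Cd8b1 kept it in 1 and Cd68 in 2. The summed markers of B cells were 40.9 to 45.1 CPM in control and 25.7 to 28.8 CPM in cKO, almost wholly Cd79b (42.9 and 26.4 CPM on average, called as lower), while the other 4 markers averaged below 0.5 CPM in both groups, and Cd79a, Ms4a1 and Pax5 had the higher average in cKO. The summed markers of dendritic cells were 1.54 to 3.96 CPM in control and 4.25 to 6.30 CPM in cKO. The other lists overlapped between the groups, with erythroid markers between 0.68 and 141 CPM. These levels moved with genotype beside every result that follows, and their part in it was not tested.

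Genes of both oxidation pathways that passed the test were lower in cKO. Of the 120 genes, 84 had enough counts to be tested, and 8 passed an adjusted p below 0.05 in edgeR's quasi-likelihood test, adjusted over all 11488 tested genes. Those reported here were Acaa1a, Acox3 and Hsd17b4 of peroxisomal fatty acid oxidation, Acadm and Acadvl of mitochondrial β-oxidation, Gnpat of ether lipid synthesis, and the isocitrate dehydrogenase Idh2. All 8 were lower in cKO, and their libraries did not overlap between the groups. In bulk RNA of sorted cells, fewer cells of a type and less RNA per cell cannot be told apart.

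Read against all tested genes, the share called was near the background, and all calls were in 1 direction. The 8 genes were 9.52% of the 84 tested, and 10.4% of all tested genes were called. As lower in cKO, the 8 genes compared with 5.89% of all tested genes. As higher in cKO, edgeR called 0 of the 84 at an adjusted p below 0.05, where 4.47% of all tested genes were called. At an unadjusted p below 0.05 edgeR called 21 of the 84 (25%, against 27.9% of all tested genes), 3 higher (background 13.3%) and 18 lower (background 14.6%). DESeq2 called 13 (15.5%, against 16.9%), 1 higher, Acsl4 (background 8.30%), and 12 lower (background 8.59%). Limma-voom called 10 (11.9%, against 11.5%), 0 higher (background 5.22%) and 10 lower (background 6.24%). With an absolute log2 fold change above 1 beside the edgeR adjusted p below 0.05, the threshold of the study's methods, 2 of the 84 remained (Acaa1a and Acox3, 2.38%), both lower in cKO, against 2.76% of all tested genes, of which 1.23% were lower and 1.53% higher. The control and cKO libraries did not overlap for 27 of the 84 genes (32.1%), close to the 33.0% of all tested genes. Of these, 21 were lower in cKO (25%, against 17.3%) and 6 were higher (7.14%, against 15.7%).

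The fitted differences were also mostly below 0. The log2 fold change, cKO over control, was below 0 for 57 of the 84 genes and above 0 for 27, while 50.2% of all tested genes were below 0. The median over the 84 genes was -0.12, and that over all tested genes was -0.00. The summed level of all 120 genes was 4610, 5116 and 5014 CPM in the control libraries and 4355, 4522 and 4328 CPM in the cKO libraries. It was therefore lower in every cKO library than in every control library.

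The members that passed the test included an oxidase, a bifunctional enzyme and a thiolase, the enzymes of a round of peroxisomal β-oxidation. Of the 22 genes of peroxisomal oxidation, 17 were tested, and their median log2 fold change was -0.14. Of the 17, edgeR called 3 as lower and none as higher, against 5.89% and 4.47% of all tested genes. For the last 2 steps of such a round, a related gene that did not pass the test is described below.

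Abcd3, a transporter of the peroxisomal membrane that prefers branched-chain and dicarboxylic substrates, had 57.8, 59.1 and 50.7 CPM in control and 53.0, 62.3 and 65.6 CPM in cKO. Its groups overlapped and the 95% interval of its log2 fold change of 0.11 ran from -0.16 to 0.38 (edgeR adjusted p = 0.662). Abcd2, another transporter of this family, had 17 counts in 1 cKO library and 0 in the others, and was not tested.

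Acox3 (ENSMUSG00000029098, chromosome 5, 35583040 to 35615352, plus strand, GRCm38) encodes an acyl-CoA oxidase, which makes the first double bond and passes the electrons to oxygen. The control libraries held 43.7, 48.2 and 42.8 CPM of it, and the cKO libraries 23.4, 15.9 and 21.4 CPM. The control libraries lay close together and every cKO library was far below them, 2.22-fold lower in the fit (log2 fold change -1.15, SE 0.18, edgeR adjusted p = 0.00669). Acox2, the oxidase for branched chains and bile acid intermediates, held 4 counts in all libraries together.

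Hsd17b4 (ENSMUSG00000024507, chromosome 18, 50128201 to 50196269, plus strand) encodes the D-bifunctional protein, which hydrates the double bond and oxidises the resulting hydroxyl group. Its level was 98.8, 136 and 94.3 CPM in control and 48.2, 74.9 and 54.7 CPM in cKO. The second library of each group was the highest of its group, and the groups stayed apart (log2 fold change -0.89, SE 0.20, edgeR adjusted p = 0.0205). Ehhadh, the L-bifunctional protein that carries out the same pair of reactions on other substrates, had 47.5, 38.2 and 25.8 CPM in control and 32.3, 50.1 and 36.3 CPM in cKO, with a log2 fold change of 0.09 (95% interval -0.38 to 0.56, edgeR adjusted p = 0.844).

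Acaa1a (ENSMUSG00000036138, chromosome 9, 119339676 to 119350299, plus strand) encodes a peroxisomal 3-ketoacyl-CoA thiolase, which splits off acetyl-CoA at the end of each round, and had the lowest log2 fold change of the 84 genes. It stood at 70.5, 88.9 and 81.5 CPM in control and 32.9, 40.9 and 31.1 CPM in cKO. The highest cKO library was far below the lowest control library, and the fit gave a level 2.30-fold lower in cKO (log2 fold change -1.20, SE 0.16, edgeR adjusted p = 0.00408). Its near-identical neighbour Acaa1b had 0 counts in all 6 libraries, while how reads that fit both copies were counted is not stated. The sterol carrier protein gene Scp2, whose long form is the other peroxisomal thiolase, had 203, 224 and 207 CPM in control and 185, 209 and 183 CPM in cKO. The groups overlapped, and the 95% interval of its log2 fold change ran from -0.35 to 0.08 (-0.14, edgeR adjusted p = 0.461). The count covers the whole Scp2 gene and does not separate the long form. The plot of the called genes by library shows these values with the group means.

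**Figure D1:**
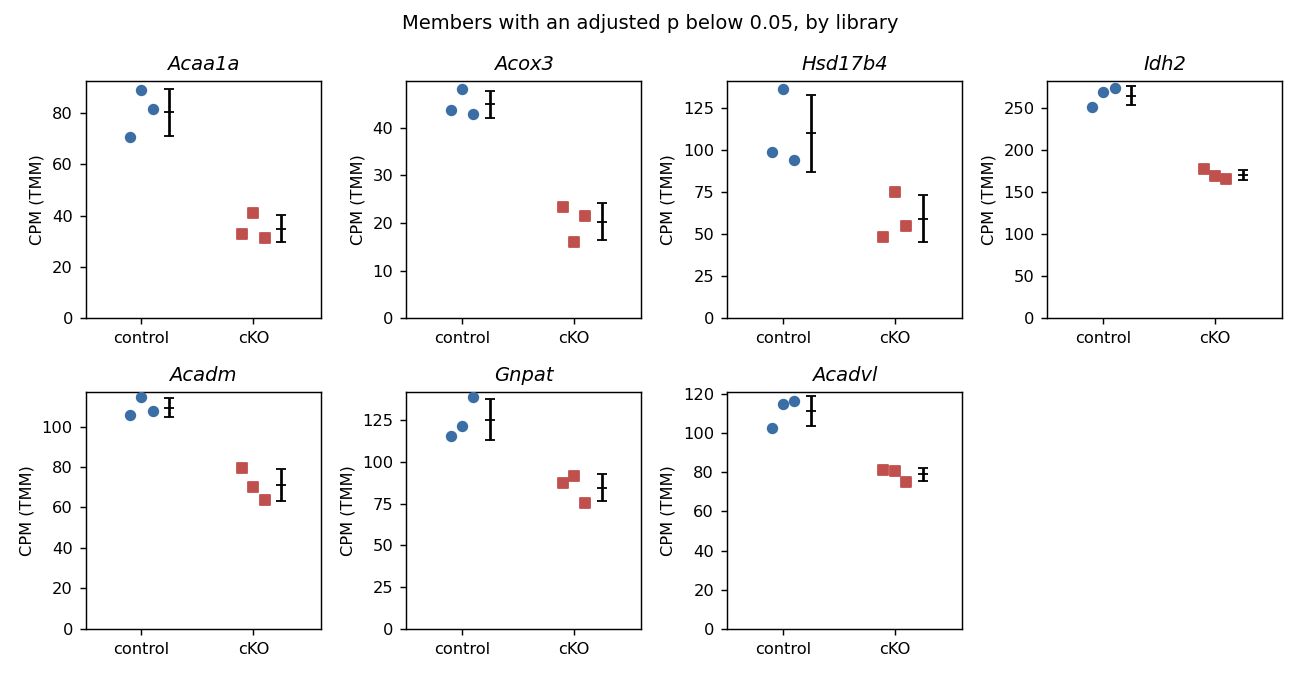
CPM (TMM-scaled, linear axes from 0) of 7 of the 8 genes with an edgeR adjusted p below 0.05, 1 panel per gene, with 1 point per library and the group mean and SD. In each panel the 3 cKO libraries lie below the 3 control libraries, with Acaa1a and Acox3 showing the widest separation on the log2 scale (-1.20 and -1.15).

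The other tested enzymes of the peroxisomal chain included Eci2, an enoyl-CoA isomerase, which was just outside the call with 120, 129 and 117 CPM in control and 94.9, 94.1 and 93.6 CPM in cKO (log2 fold change -0.37, SE 0.11, edgeR adjusted p = 0.0562). Phyh, which starts the α-oxidation of phytanic acid, had 10.3, 9.41 and 11.3 CPM in control and 7.08, 10.05 and 9.97 CPM in cKO, with overlapping groups (log2 fold change -0.19, edgeR adjusted p = 0.661). The highest log2 fold change of all 84 genes belonged to Pecr, a peroxisomal enoyl-CoA reductase, at 1.40 with an SE of 0.69. It rested on 13, 11 and 30 counts in control and 81, 33 and 22 counts in cKO, which overlapped, and did not pass the test (edgeR adjusted p = 0.212).

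Mitochondrial β-oxidation showed opposite signs among its chain-length dehydrogenases. All 13 genes of the list were tested, and the acyl-CoA dehydrogenases for medium chains (Acadm) and very long chains (Acadvl) were lower in cKO, while none of the 13 passed as higher. The median log2 fold change was -0.22, with 9 genes below 0 and 4 above. DESeq2 and limma-voom each called 3 of the 13 as lower and none as higher, and at an unadjusted p below 0.05 edgeR placed 1 of the 13 higher and 4 lower, against 13.3% and 14.6% of all tested genes. In these 2 tools 8.59% and 6.24% of all tested genes were called lower, and in edgeR 5.89% were.

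Acadm (ENSMUSG00000062908, chromosome 3, 153922357 to 153944632, minus strand) had 106, 115 and 108 CPM in control and 79.4, 70.1 and 63.8 CPM in cKO. The groups were apart and narrow, with a log2 fold change of -0.62 (SE 0.13, edgeR adjusted p = 0.0155). Acadvl (ENSMUSG00000018574, chromosome 11, 70010183 to 70015411, minus strand), whose product works at the inner mitochondrial membrane, had 102, 115 and 116 CPM in control and 80.9, 80.7 and 75.1 CPM in cKO. The separation was as complete as for Acadm and smaller in size (log2 fold change -0.49, SE 0.12, edgeR adjusted p = 0.0274). In the annotation, 42.9% of the exonic bases of Acadvl lie opposite exons of Dvl2, which had -0.00 on the same scale (adjusted p = 0.999 in edgeR), and the sources do not say whether counting used strand. Acadl, the long-chain dehydrogenase, had 37.8, 51.8 and 51.6 CPM in control and 60.0, 71.2 and 61.5 CPM in cKO. All cKO libraries were above all control libraries, but the difference did not pass the test (log2 fold change 0.45, SE 0.16, edgeR adjusted p = 0.0988). Acads, for short chains, had overlapping groups, with a log2 fold change of -0.13 (adjusted p = 0.656 in edgeR).

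The later mitochondrial steps did not pass the test. Hadha and Hadhb encode the α and β subunits of the trifunctional protein, which catalyses the last steps on long chains. Hadha had 178, 214 and 198 CPM in control and 166, 175 and 166 CPM in cKO (log2 fold change -0.22, SE 0.11, edgeR adjusted p = 0.232). Hadhb had 214, 265 and 238 CPM in control and 284, 273 and 294 CPM in cKO (log2 fold change 0.25, SE 0.12, edgeR adjusted p = 0.198). The libraries of both genes were apart between the groups, in opposite directions. The mitochondrial thiolase Acaa2, the highest gene of the list per length at 153 in control and 118 in cKO in units of FPKM (fragments scaled to gene length and library size), was just outside the call, with 216, 242 and 243 CPM in control and 194, 169 and 171 CPM in cKO (log2 fold change -0.39, SE 0.11, edgeR adjusted p = 0.0531).

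The promoters of 4 of the called genes are printed to show the sequence around the start of genes that were lower together. They are RefSeq windows from GRCm38.p6, 250 bases before to 50 after the start, each written in the direction of transcription. The Acaa1a window begins at 119341044, inside the gene position given above, which begins at 119339676. It therefore surrounds a start within the annotated gene. Such a window was at hand for 86 of the 120 genes and for 6 of the 8 called. Capitals mark AGGTCA, the half-site read by nuclear receptors of the PPAR and RXR families, CCAAT, the NF-Y box, and GGGCGG, the GC box, on either strand, and a match on the reverse strand is printed as its reverse complement. The CCAAT and GGGCGG motifs were added to the search after the expression values were seen.
Acaa1a, chr9:119341044-119341343, plus strand: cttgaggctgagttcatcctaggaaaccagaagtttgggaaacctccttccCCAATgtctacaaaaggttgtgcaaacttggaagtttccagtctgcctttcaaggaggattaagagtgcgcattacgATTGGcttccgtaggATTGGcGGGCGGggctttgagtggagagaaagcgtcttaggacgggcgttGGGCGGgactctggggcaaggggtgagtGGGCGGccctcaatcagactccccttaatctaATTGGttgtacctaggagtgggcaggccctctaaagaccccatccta
Acox3, chr5:35582784-35583083, plus strand: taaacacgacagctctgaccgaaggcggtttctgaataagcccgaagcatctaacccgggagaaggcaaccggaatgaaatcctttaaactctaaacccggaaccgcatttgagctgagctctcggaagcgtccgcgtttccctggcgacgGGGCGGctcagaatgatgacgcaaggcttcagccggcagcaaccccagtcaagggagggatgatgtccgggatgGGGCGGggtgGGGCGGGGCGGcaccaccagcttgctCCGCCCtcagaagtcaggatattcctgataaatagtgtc
Acadm, chr3:153944594-153944893, minus strand: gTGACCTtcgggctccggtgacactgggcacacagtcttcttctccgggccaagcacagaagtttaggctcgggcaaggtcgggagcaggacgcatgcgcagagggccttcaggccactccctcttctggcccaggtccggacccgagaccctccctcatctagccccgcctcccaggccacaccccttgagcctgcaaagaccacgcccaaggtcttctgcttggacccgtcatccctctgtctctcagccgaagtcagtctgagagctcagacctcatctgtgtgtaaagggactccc
Acadvl, chr11:70015379-70015678, minus strand: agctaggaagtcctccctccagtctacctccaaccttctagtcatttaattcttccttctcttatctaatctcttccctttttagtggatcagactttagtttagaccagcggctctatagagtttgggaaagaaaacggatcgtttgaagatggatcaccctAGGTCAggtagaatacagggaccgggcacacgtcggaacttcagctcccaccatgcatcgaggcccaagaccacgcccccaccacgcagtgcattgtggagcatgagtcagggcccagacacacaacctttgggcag

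Of these 4 windows, those of Acadm and Acadvl held AGGTCA, at positions -249 to -244 on the reverse strand and -87 to -82 on the forward strand, counted from the start site. The Acaa1a window held 4 CCAAT and 3 GGGCGG, and the Acox3 window 5 GGGCGG, of which a pair overlap. AGGTCA stood in 2 of the 6 called windows, in 8 of the 65 tested members with a window (12.3%) and in 14.7% of the tested genes with a window. Over all 27025 genes with a window it was 18.1%. A gene was counted as holding a motif if any of its windows did. The direct repeat of AGGTCA with 1 base between (DR1), the full PPAR element in its ideal form, stood in 0 of the 65. It stood in 0.0481% of all genes with a window, so its letters are rare in windows of this length. CCAAT stood in 30 of the 65 (46.2%), in 43.9% of the tested genes and in 41.1% of all genes with a window. GGGCGG stood in 51 of the 65 (78.5%), in 68.8% of the tested genes and in 38.2% of all genes with a window.

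Genes for the activation of fatty acids and their entry into mitochondria gave no call. None of the 4 tested of 8 acyl-CoA synthetases and none of the 4 tested of 6 carnitine acyltransferases passed edgeR's test. At an unadjusted p below 0.05 edgeR placed 1 synthetase higher (background 13.3%) and 0 transferases. DESeq2 called 1 synthetase (Acsl4, higher, background 8.30%) and 0 transferases, and limma-voom called 0 in both lists. The median log2 fold change was 0.42 for the synthetases, with 3 of 4 above 0, and 0.07 for the transferases.

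Acsl4, which prefers arachidonic acid, had 39.3, 30.7 and 40.5 CPM in control and 46.7, 50.5 and 54.8 CPM in cKO. Each cKO library was above each control library, just outside the call (log2 fold change 0.46, SE 0.16, edgeR adjusted p = 0.0873). Acsl1 had overlapping groups, with a log2 fold change of 0.43 (SE 0.26, edgeR adjusted p = 0.306). Acsl5, the highest synthetase per length, had 106, 140 and 147 CPM in control and 114, 119 and 121 CPM in cKO, within the control range (log2 fold change -0.15, edgeR adjusted p = 0.534).

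Cpt1a, the outer membrane palmitoyltransferase that controls entry of long chains into mitochondria, had 31.6, 31.3 and 30.7 CPM in control and 48.3, 22.3 and 55.9 CPM in cKO. The control libraries were almost equal, whereas 2 cKO libraries were above them and 1 below (log2 fold change 0.44, SE 0.28, edgeR adjusted p = 0.343). Without cKO library 2 the difference was larger and passed the test, at 0.74 on the log2 scale (adjusted p = 0.0345 in edgeR). In that fit 6.31% of all tested genes were called. Cpt2 of the inner membrane (log2 fold change -0.29, edgeR adjusted p = 0.561), the carnitine acetyltransferase Crat (0.03, adjusted p = 0.945) and the peroxisomal octanoyltransferase Crot (0.11, adjusted p = 0.653) all had overlapping groups.

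In ether lipid synthesis, all 4 genes were tested, 1 passed as lower and none as higher, against 5.89% and 4.47% of all tested genes. Gnpat (ENSMUSG00000031985, chromosome 8, 124863033 to 124890057, plus strand) encodes the acyltransferase that starts plasmalogen synthesis in the peroxisome. Its level was 115, 121 and 139 CPM in control and 87.1, 91.3 and 75.4 CPM in cKO, with a clear gap between the groups (log2 fold change -0.56, SE 0.13, edgeR adjusted p = 0.0242). Agps, which forms the ether bond in the next step, had 118, 95.6 and 88.3 CPM in control and 103, 93.3 and 101 CPM in cKO. Its values were interleaved, and the 95% interval of its log2 fold change of -0.02 ran from -0.29 to 0.25 (edgeR adjusted p = 0.946). Far1, the reductase that supplies the fatty alcohol, had 93.4, 107 and 82.8 CPM in control and 116, 126 and 113 CPM in cKO, apart and higher but short of the call (log2 fold change 0.33, edgeR adjusted p = 0.133).

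Among the 18 oxidases and other enzymes assigned to the peroxisome, 10 were tested, 9 of them had a log2 fold change below 0, and 1 passed as lower. Of all tested genes, 50.2% were below 0 and 5.89% were called as lower. Idh2 (ENSMUSG00000030541, chromosome 7, 80094846 to 80115392, minus strand) encodes the NADP-dependent isocitrate dehydrogenase of mitochondria, although the KEGG entry lists it with the peroxisome. It stood at 251, 269 and 273 CPM in control and 177, 169 and 165 CPM in cKO. Both groups were tight and far apart (log2 fold change -0.63, SE 0.10, edgeR adjusted p = 0.00825). Idh1, the enzyme of the cytosol and peroxisome, had 27.1, 36.4 and 36.6 CPM in control and 33.5, 29.2 and 19.1 CPM in cKO, which overlapped (log2 fold change -0.29, edgeR adjusted p = 0.428). Paox, a polyamine oxidase of the peroxisome, was just outside the call, with 15.04, 18.9 and 16.1 CPM in control and 11.0, 10.3 and 8.77 CPM in cKO (log2 fold change -0.73, SE 0.21, edgeR adjusted p = 0.0521).

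The machinery that builds the peroxisome gave no call with all 6 libraries. Of 22 genes listed as peroxins or as membrane proteins, Mpv17, Mpv17l and Mpv17l2 among them, 21 were tested. EdgeR called 0 of these at an adjusted p below 0.05. At an unadjusted p below 0.05 edgeR placed 4 of the 21 lower and 0 higher, against 14.6% and 13.3% of all tested genes, and DESeq2 and limma-voom called 0. The median log2 fold change was -0.09, with 16 genes below 0 and 5 above.

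Pex5, the receptor that carries most matrix enzymes to the peroxisome, had 61.4, 50.02 and 59.6 CPM in control and 58.1, 53.0 and 58.7 CPM in cKO. Its log2 fold change of -0.01 had a 95% interval of -0.28 to 0.26 (edgeR adjusted p = 0.972). Pex14, the docking protein for Pex5, had a log2 fold change of -0.00 with an interval of -0.27 to 0.27 (edgeR adjusted p = 0.996). Neither interval reaches -0.49, the smallest difference among the 8 called genes. Pex7, the receptor for the enzymes with the other targeting signal, Acaa1a, Agps and Phyh among them, had 30.8, 57.5 and 54.4 CPM in control and 31.9, 39.6 and 27.9 CPM in cKO. Control library 1 was at the cKO level and the groups overlapped (log2 fold change -0.52, SE 0.24, edgeR adjusted p = 0.182). Without control library 1, Pex7 was called as lower (-0.76 on the log2 scale, adjusted p = 0.0157 in edgeR), as was the membrane protein gene Pxmp4 (-0.46, adjusted p = 0.0234). In that fit 17.1% of all tested genes were called in either direction. Pex19, the chaperone for membrane proteins and the highest peroxin per length, had a log2 fold change of -0.09 (adjusted p = 0.712 in edgeR), and Pex11a, a division factor, had at most 1.67 CPM in any library (log2 fold change 0.57, SE 0.64, edgeR adjusted p = 0.613).

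**Figure D2:**
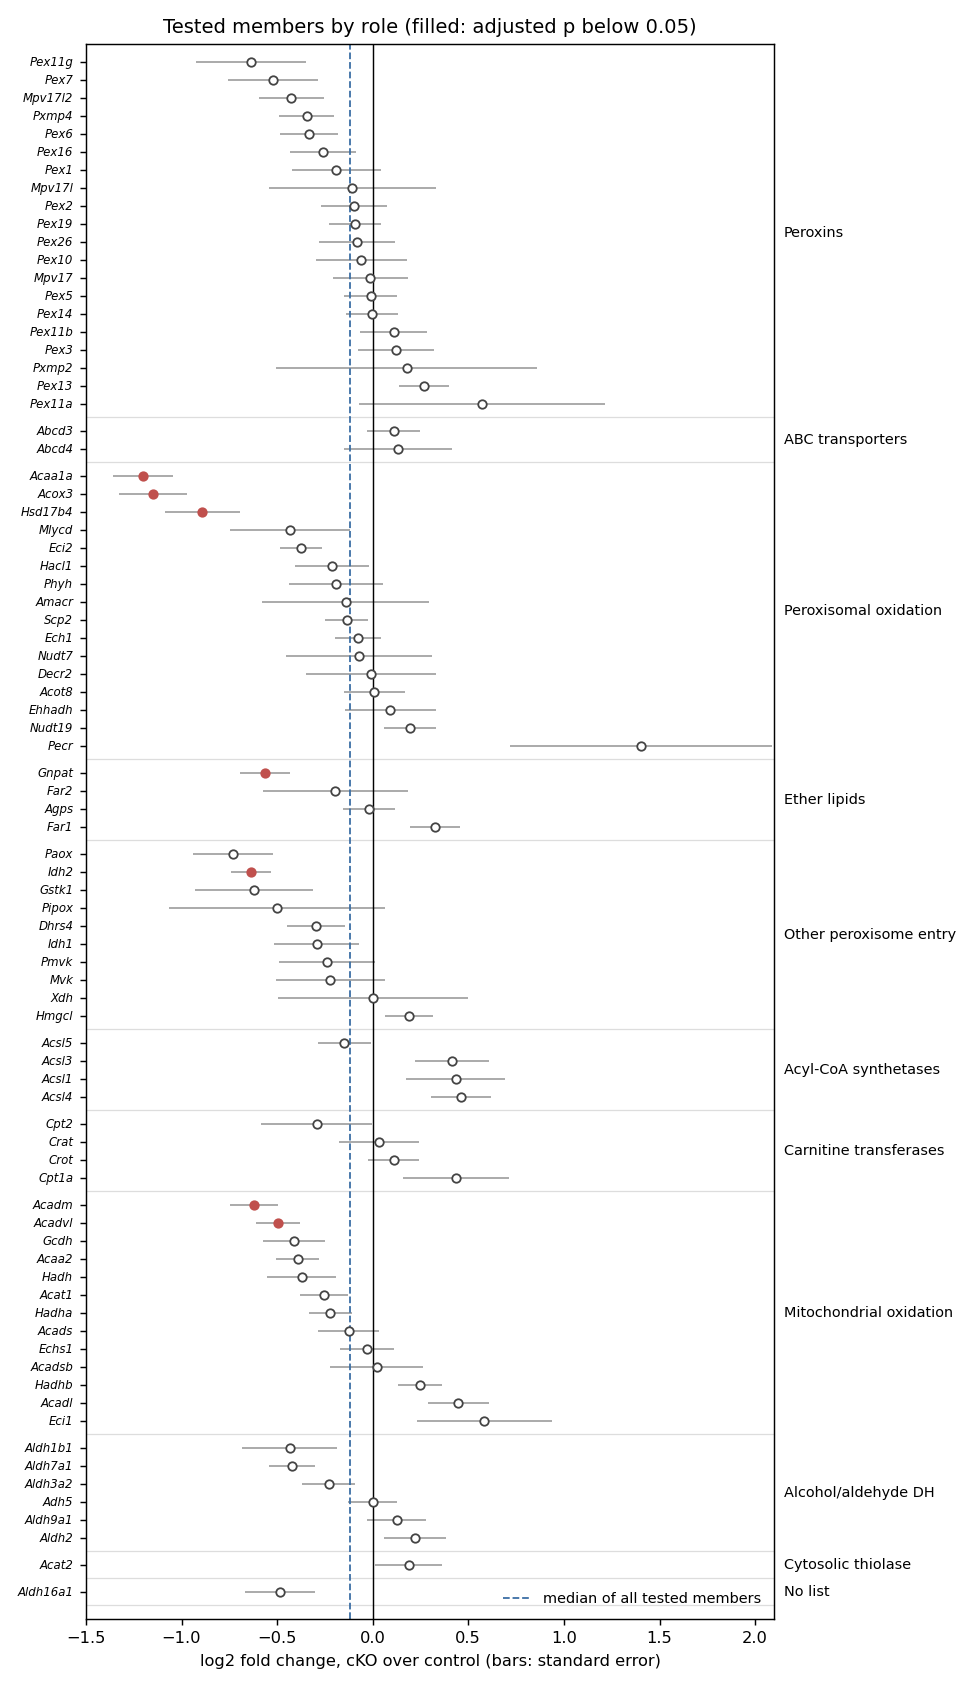
Log2 fold change, cKO over control, of 81 of the 84 tested genes on the horizontal axis with its standard error, 1 row per gene grouped by role, with filled points for an edgeR adjusted p below 0.05 and a dashed line at the median of all 84. The 7 filled points lie left of 0, and the median is -0.12.

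The plot of log2 fold changes by role sets the called genes, from -1.20 for Acaa1a to -0.49 for Acadvl, beside the members of the same role. Of the 9 tested genes that carried both KEGG entries, 2 passed as lower and their median was 0.09. Of the 52 tested with the Peroxisome entry alone, 4 passed as lower with a median of -0.10. Of the 23 with the Fatty acid degradation entry alone, 2 passed as lower with a median of -0.22. Of all tested genes, 5.89% were called as lower. The dehydrogenases of alcohols and aldehydes gave no call in edgeR among the 6 tested of 9. At an unadjusted p below 0.05 edgeR placed 1 lower (background 14.6%), and DESeq2 and limma-voom each called 1 as lower (background 8.59% and 6.24%). That gene was Aldh7a1, with 84.2, 91.0 and 82.6 CPM in control and 62.4, 69.4 and 60.7 CPM in cKO (log2 fold change -0.42, SE 0.12, edgeR adjusted p = 0.0535). The highest of this list per length, Adh5, had a log2 fold change of -0.00 (95% interval -0.25 to 0.25, edgeR adjusted p = 0.999), and the cytosolic thiolase Acat2 had 0.19 (edgeR adjusted p = 0.533).

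Related enzymes were set side by side within each library by FPKM, which divides by gene length. These pairs were chosen after the values were seen, mostly with 1 called gene in each, so that their ratios are a description without a test. The ratio of Acadm to Acadl was 2.87, 2.16 and 2.07 in control and 1.32, 0.952 and 1.02 in cKO, so that the medium-chain dehydrogenase went from above the long-chain one to about the same level. Acaa1a stood at 0.254, 0.277 and 0.280 of the FPKM of the whole Scp2 gene, all forms together, in control and at 0.128, 0.131 and 0.115 in cKO. Within the trifunctional protein, the ratio of Hadha to Hadhb was 0.414, 0.406 and 0.415 in control and 0.293, 0.324 and 0.281 in cKO. Both ranges were narrow and did not overlap.

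**Figure D3:**
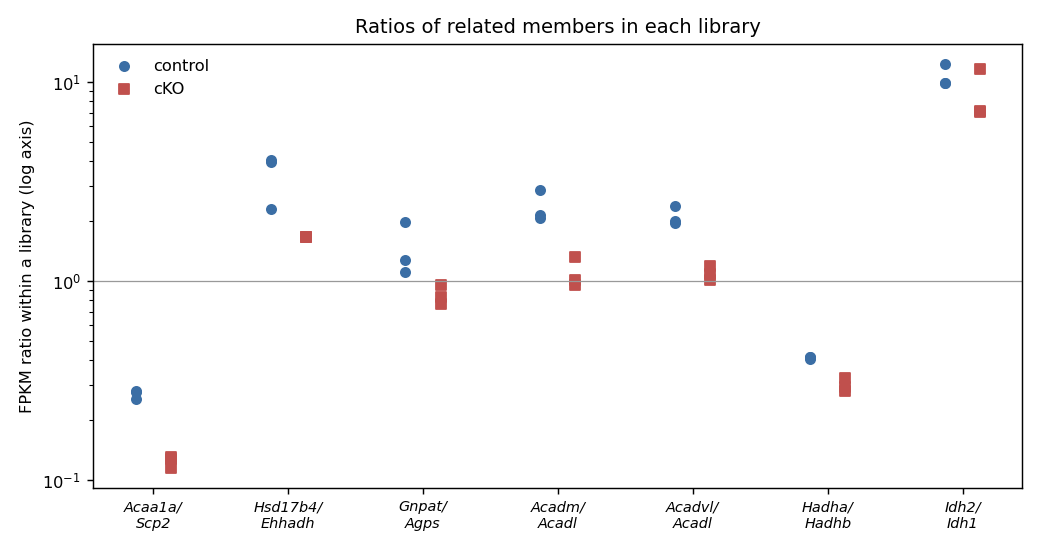
Ratio of the FPKM of related genes within a library (log axis), with 1 point per library, for 3 control and 3 cKO libraries and a line at equal FPKM. Ratios of the first 6 pairs do not overlap between the groups, whereas those of Idh2 to Idh1 do (9.83 to 12.3 in control and 7.06 to 11.6 in cKO).

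The plot of ratios also holds Hsd17b4 to Ehhadh, at 2.31 to 4.07 in control and 1.66 to 1.67 in cKO, and Gnpat to Agps, at 1.11 to 1.97 in control and 0.768 to 0.952 in cKO. Per length, Scp2 was the most abundant of the 120 genes, at 168 ± 10.3 FPKM in control and 161 ± 17.5 FPKM in cKO (SD, n = 3 each). Of the called genes, Idh2 was the most abundant (152 FPKM in control and 99.9 in cKO), and Acox3 the least (13.5 and 6.40 FPKM).

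The 36 genes that were not tested had few or no counts. Of these, 19 had 0 counts in every library, where a count of 0 allows up to 3 counts, and 17 had some, with at most 103 counts in all libraries together for Nudt12. The genes at 0 included all 8 fatty acid hydroxylases of the Cyp4a family, the hydroxyacid oxidases Hao1 and Hao2, the aminotransferase Agxt and the D-amino acid oxidase Dao, which are known from liver and kidney. The muscle form Cpt1b had 11 counts and the brain form Cpt1c had 2 counts over all libraries. Of the 84 tested genes, 83 were above the filter of 0.483 CPM in all 6 libraries, and Pxmp2, with 9 to 81 counts, was not, so that no call rests on a gene seen in 1 group only.

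Genes around these pathways, taken from further lists, gave calls in both directions. Among 19 regulators, 14 were tested, 1 was higher and 3 were lower in cKO, against 4.47% and 5.89% of all tested genes. Ppara and Pparg, nuclear receptors that drive fatty acid genes in liver and fat, and their coactivator Ppargc1a had too few counts to be tested. Their frequent partner Rxrb was lower (37.2, 43.3 and 44.9 CPM in control, 27.4, 22.1 and 26.1 CPM in cKO, log2 fold change -0.73, SE 0.16, edgeR adjusted p = 0.0201). The corepressor Ncor1 (log2 fold change -0.58, adjusted p = 0.0207) and the transcription factor Nrf1 (-0.41, adjusted p = 0.0394) were lower too, and Prkaa1, a catalytic subunit of the AMP-activated kinase, was higher (0.80, adjusted p = 0.0293). Tested genes of the same families that were not called were Ppard (log2 fold change 0.36, edgeR adjusted p = 0.706), Ppargc1b (0.28, adjusted p = 0.675) and Rxra (-0.98, adjusted p = 0.600). Rxra averaged 0.83 CPM in control and 0.42 CPM in cKO.

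Of 9 carriers and electron transfer genes, all tested, 1 was higher (background 4.47%) and 1 was lower (background 5.89%) in cKO. Slc22a5, which imports carnitine into the cell, was higher, with 20.4, 16.0 and 23.3 CPM in control and 33.2, 31.2 and 37.0 CPM in cKO (log2 fold change 0.76, SE 0.18, edgeR adjusted p = 0.0293). Slc25a20, which exchanges acylcarnitine across the inner mitochondrial membrane, was lower, with 18.4, 29.2 and 23.1 CPM in control and 13.1, 9.84 and 15.5 CPM in cKO (log2 fold change -0.88, SE 0.24, edgeR adjusted p = 0.0447). Neither gene had overlapping groups.

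Synthesis and storage genes were also represented among the calls. Of 15 genes in a hand-written list for fatty acid synthesis, 14 were tested, 3 were lower (background 5.89%) and 1 was higher (background 4.47%). A place in this list, as for Acss1, does not show that a gene serves synthesis. The lower ones were the acetyl-CoA synthetases Acss1 (log2 fold change -1.27, edgeR adjusted p = 0.00349) and Acss2 (-0.90, adjusted p = 0.00915) and the desaturase Scd2 (-0.73, adjusted p = 0.00461), and the elongase Elovl5 was higher (0.41, adjusted p = 0.0422). Of 20 binding, storage and lipolysis genes, 16 were tested, 1 was lower (background 5.89%) and 1 was higher (background 4.47%). The lysosomal lipase Lipa was lower (log2 fold change -0.72, edgeR adjusted p = 0.0174). Lpl, the lipoprotein lipase, which macrophages also express, had 0 counts in each control library and 22, 19 and 66 counts in cKO, at least 11.8-fold higher against a floor of 3 counts per control library (edgeR adjusted p = 0.0125). Without cKO library 3 it was at least 7.01-fold higher and was not called (edgeR adjusted p = 0.0750). Of 13 genes of peroxisome division and turnover outside the KEGG entry, 12 were tested and 1 was lower (background 5.89%). It was the peroxisomal protease Lonp2, with 184, 178 and 175 CPM in control and 125, 129 and 115 CPM in cKO (log2 fold change -0.54, SE 0.11, edgeR adjusted p = 0.0145).

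Among the 7 called members described here, Acaa1a and Acox3 kept their calls with any single library left out, while the other 5 did not. The edgeR adjusted p ran from 0.00170 to 0.0394 for Acaa1a and from 0.00481 to 0.0450 for Acox3. Idh2 lost the call only without cKO library 3 (adjusted p = 0.0570). Acadm lost it without control library 2, cKO library 2 or cKO library 3, and Hsd17b4 without control library 2, cKO library 1 or cKO library 3. Gnpat lost it without control library 2 or 3 or cKO library 1 or 3, and Acadvl without any library except control library 1. The log2 fold changes of these genes stayed below 0 throughout. The background moved as well, since without cKO library 3 only 1.02% of all tested genes were called, and without control library 1 17.1% were. Of the 13 called genes of the further lists, Acss1 and Scd2 kept the call in all 6 such fits, Acss2 and Lpl lost it without cKO library 3 alone, and the other 9 kept it in 1 to 3 of the 6.

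**Figure D4:**
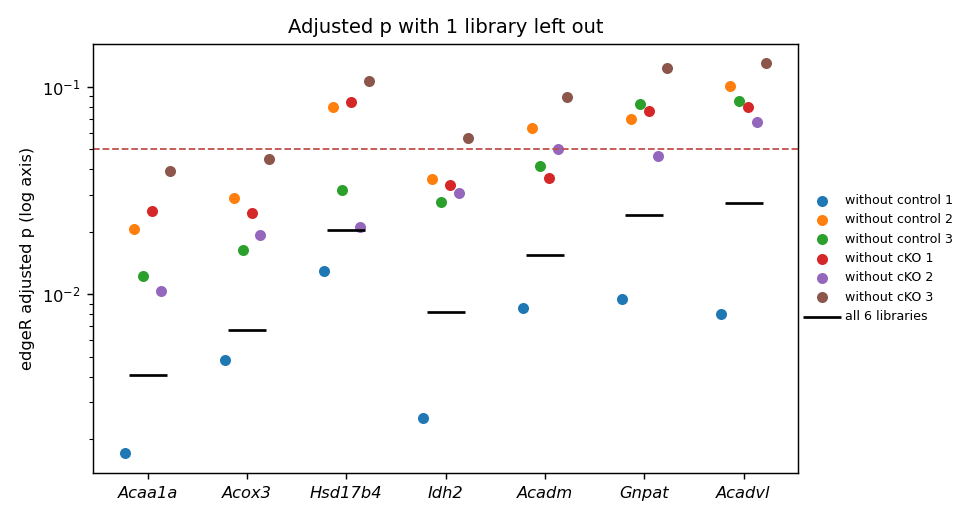
edgeR adjusted p (log axis) of 7 of the 8 called genes with all 6 libraries (black dashes) and with each library left out in turn (coloured points), with a dashed line at 0.05. All points of Acaa1a and Acox3 lie below the line, up to 0.0394 and 0.0450, and the points above the line reach 0.130 for Acadvl.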

How the data were processed

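RNA from sorted DP thymocytes was pre-amplified as cDNA and sequenced on an Illumina HiSeq2500. The methods and the labels name different library kits, and no source used here gives the genome build, the annotation or the strand setting of the counting. The submitters' processing notes name fastp 0.18.0, Bowtie2 2.2.8, HISAT2, StringTie and RSEM without their roles. The deposited count columns hold the authors' reads per gene, not normalized. The deposited FPKM columns hold the authors' values per gene length and library size, and were used here only to compare genes. The log2, p-value and FDR columns of the authors' own comparison were not used, and the group means of FPKM were computed from the libraries.

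Counts were tested in R 4.3.3 with edgeR 4.0.16 (filterByExpr, minimum count 10 and minimum total 15, TMM, quasi-likelihood F test with genotype as the only term, Benjamini-Hochberg adjustment over all tested genes). CPM values are TMM-scaled. Library depth was 18963775 to 26252248 counts, and the precision of a value follows its count and the spread between 3 libraries. The 95% intervals of log2 fold changes use the normal quantile with the fitted SE. The F test has few degrees of freedom with 3 libraries per group, so these intervals are narrower than that test would give. Libraries of 1 group differed by 19.8 to 68.3 in chi-square per degree of freedom, so none was a duplicate. Named genes were all members called, 24 members fixed by symbol, the highest member per length of each list, members with an adjusted p from 0.05 to 0.1, and called genes of the other lists. Further genes in the text were picked with their values in view. Some members that these rules cover are not reported here and enter only the totals. The members and lists were chosen with earlier results of these data known. The script was tested on simulated data. Alternatives were DESeq2 1.42.0, limma-voom (limma 3.58.1), RLE factors, total counts, no filter, a mean of at least 5 CPM, the replicate number as a block, and leaving out each library, which for genes of the other lists was added after the data were seen. Positions of genes were taken from GENCODE M21 (GRCm38), which may not be the authors' build, matched by Ensembl identifier. Protein sequences were not used here.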

Additional observations from a re-analysis of the deposited data

How the results depend on the processing

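The 8 calls held under RLE factors, total counts, no filter on low counts, a mean of at least 5 CPM, DESeq2 and limma-voom, and no named gene was called in the opposite direction under any alternative. DESeq2 called 13 of the 84 genes (15.5%, against 16.9% of all tested genes), adding Acaa2, Aldh7a1, Eci2 and Paox as lower and Acsl4 as higher, and so gave 1 member higher and 953 of all tested genes higher and 987 lower, against 514 and 677 in edgeR. Limma-voom and the filter at 5 CPM each added Acaa2 and Aldh7a1. With each library left out in turn, members called as lower numbered 2 to 16 and as higher 0 to 1, and members past the fold threshold as higher 0 to 1 (Gm49387, at 0 counts in cKO library 1, with exons that all lie within those of Hacl1 or Colq). The median log2 fold change of the members ranged from -0.19 to -0.068, the lowest without cKO library 2. All tested genes called numbered 42 to 1000 as higher and 78 to 1030 as lower. The lowest counts came without cKO library 3 and the highest without control library 1, and the cause was not tested. In a paired fit with the replicate number as a replicate block, 8 members and 1238 of all tested genes were called. Same-numbered libraries deviated together with correlations of 0.0451, 0.0377 and -0.0300, so the numbers were not taken to pair the samples. Genes with few counts, such as Pecr and Pex11a, had wide intervals, and changes below those were not detectable at this depth.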
